A study of Mus musculus with 10 samples.

Results

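The nuclear-encoded subunits of the mitochondrial respiratory chain and ATP synthase were followed across the 10 libraries of a ribosome profiling experiment. They were chosen by gene symbol alone: the listed transcripts were given their GENCODE M21 symbols, and coding genes named Nduf plus a letter from a, b, c, s or v and a number, Sdha to Sdhd, Uqcr, Cox4 to Cox8 or Atp5 were kept. This gave 77 members among the 14534 coding transcripts listed, with 35 in complex I, 4 in complex II, 8 in complex III, 14 in complex IV and 16 in complex V. A further 7 symbols of the annotation matched the rule and were not analysed here, namely Atp5g2, Cox6a2, Cox7b2, Cox8b, Cox8c, Ndufb4 and Ndufs5. Ndufa4 and Ndufa4l2 were counted in complex I by their symbols, and Atp5s, a regulatory factor, in complex V.

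The cells were CGR8, a feeder-free mouse embryonic stem cell line of the 129 strain, grown on gelatin in medium with 15% fetal calf serum and leukemia inhibitory factor. Ribosome footprints were sequenced from untreated cells, from cells given DMDA-PatA at 1 µM for 10 min, harringtonine at 2 µg/ml for 10 min or puromycin at 0.2 mg/ml for 20 min, with 2 libraries for each condition, and 2 libraries held whole transcriptome reads of untreated cells. All cultures carried the same amount of the solvent DMSO and all lysates held cycloheximide, which freezes ribosomes, while nuclei and most mitochondria had been spun out. DMDA-PatA targets eIF4A, the helicase that initiation needs to open the mRNA, harringtonine stops the ribosome just after it has started, and puromycin releases the growing chain. The doses and times differed between drugs, and all samples come from 1 cell line. The study calls the replicates biological without saying how the cultures were kept apart. The p-values rest on a spread between these 2 samples per condition that was pooled over the conditions of a fit and shared between genes. They do not measure the spread of 1 condition alone, and a call can change with a library outside its comparison.

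Complexes I to IV pass electrons from NADH or succinate to oxygen, and all of them except complex II pump protons across the inner mitochondrial membrane. Complex V, the ATP synthase, lets the protons back and makes ATP. A few subunits are made inside the mitochondrion, while the members described here are translated on cytosolic ribosomes and imported, which is why their footprints can report on cytosolic initiation. The 13 mitochondrially encoded subunits were not analysed here.

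Members were short mRNAs. Their coding sequences had a median of 408 nt (range 156 to 2181 nt) against 1335 nt for all listed coding transcripts, and 24 of the 77 members, 31.2%, had at most 300 nt of coding sequence against 2.97% of all. The median coding length was 432 nt in complex I, 676.5 nt in complex II, 300 nt in complex III, 261 nt in complex IV and 415.5 nt in complex V. Their 5' UTRs had a median of 96 nt against 164 nt for all. The proteins of complex IV were thus the shortest, and those of complex II the longest.

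The start codons were compared because DMDA-PatA and harringtonine act on or near initiation. The listed start lay on an ATG in the annotation for 61 members, and the other 16 were left out of this comparison. The letters ATGGCGGC, read on the mRNA strand only and known from the TISU element of mRNAs with very short leaders, stood at the start codon of 9 of these 61 members, or 14.8%, against 2.98% of 11056 coding transcripts. They were found in 8 of 26 members of complex I (30.8%) and 1 of 3 of complex II, and in none of 7, 9 and 16 members of complexes III, IV and V. The windows of 12 bases before the start codon to 9 after it are shown for 3 members that carry these letters and for 4 abundant members that do not, with the start codon in capitals, from GENCODE M21 transcripts on GRCm38.
Ndufs7: gccgaggccaagATGgcggcgctg
Ndufs6: gtcaccggcaagATGgcggcggtg
Sdhb: tcaggagccaaaATGgcggcgacg
Atp5b: ccggattccgccATGttgagtctt
Cox4i1: ttggacggcggaATGttggcttcc
Cox8a: ttccgcgccgtcATGtctgtcctg
Uqcrq: gccgccgtcaccATGggccgcgag
The listed transcripts lie at chr10:80249121-80256793 (plus strand) for Ndufs7, chr13:73319874-73328542 (minus) for Ndufs6 and chr4:140961203-140979193 (plus) for Sdhb. Those of the other group lie at chr10:128083273-128090391 (plus) for Atp5b, chr8:120668222-120674207 (plus) for Cox4i1, chr19:7215153-7217616 (minus) for Cox8a and chr11:53427922-53430827 (minus) for Uqcrq. The 9 members with ATGGCGGC did not have short annotated leaders, as their 5' UTRs had a median of 180 nt against 103 nt for the 52 others. DMDA-PatA inhibited their coding footprints by a median of 10.3 fold (range 4.42 to 14.9), and those of the 45 others past the read cutoffs given below by 13.97 fold (range 4.203 to 58.5). These medians carry no test, and 8 of the 9 members are of complex I, whose own median was 10.6 fold. A purine stood at the third base before the ATG in 91.8% of members and 85% of all coding transcripts, and a G right after the ATG in 50.8% and 52.1%. In complex IV a G followed the ATG in 1 of 9 members, or 11.1%.

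The libraries differed widely in depth. They held 618334 to 1944784 reads on coding sequences with a drug, 9104220 and 10614247 without one, and 16649611 and 38046741 in the transcriptome, of which members took between 12799 and 326381. The authors scaled the footprints to spike-in RNA, so the levels called normalised footprints below keep the overall fall in translation. Marker genes of pluripotent cells were present (8 of 8 detected in every library, Pou5f1 at 9296 and 7696 normalised transcriptome reads), but 5 fibroblast genes summed to 174935 and 179539 reads, mostly Col1a1. Col1a2 (28772 and 27783 reads) and Postn (13705 and 14979.5) held most of the rest of this sum. The fibroblast genes were not all high, as Thy1 had only 118.7 and 124.6 reads and Lum fewer in both transcriptome libraries. The 5 listed genes of differentiated lineages summed to 2740 and 2857 transcriptome reads, mostly T at 2381 and 2595. The part of the fibroblast and lineage genes in the results was not tested. The reads recovered cover counting error only in the intervals given.

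In untreated cells Atp5b, Cox8a and Cox4i1 had the most footprints per kb among the members. Levels were compared between genes as control footprints per kb of coding sequence, with the SD of the 2 libraries. Atp5b, the catalytic beta subunit, had 20785 ± 1571, Cox8a 18782 ± 2062, Cox4i1 18098 ± 2173, Atp5a1, the alpha subunit, 12853 ± 1049 and Atp5g3, a ring subunit gene, 11283 ± 1134 per kb. The libraries of Atp5b and Cox8a overlapped, and so did those of Cox8a and Cox4i1, while both libraries of Atp5b lay just above both of Cox4i1. Atp5b alone took 21.3% and 21.2% of member coding footprints in the control libraries and Atp5a1 13.8% and 13.7%, so that 6 members held 50% of the total. The median per kb was 1868 in complex I, 2423 in complex II, 3035 in complex III, 3161 in complex IV and 3712 in complex V, although in complex IV the replicate medians were 4549 and 1762.

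The subunits of the catalytic head are not present in equal copies in the enzyme, and their footprints were unequal too. Per kb, Atp5a1 carried 7.23 ± 0.0439 times and Atp5b 11.7 ± 0.142 times the footprints of Atp5c1, the single central shaft gamma subunit. The transcriptome gave nearly the same ratios, 8.37 ± 0.330 and 12.2 ± 0.812. The small shaft subunits Atp5d (delta) and Atp5e (epsilon) stood 4.80 ± 0.376 and 2.87 ± 0.328 times above Atp5c1 in footprints per kb, against 2.78 ± 0.248 and 1.75 ± 0.257 in the transcriptome. Only unique matches were counted, and 23.5% of short windows along Atp5c1 occur more than once in the genome. The share was 4.49% for Atp5b and 0% for Atp5a1, Atp5d and Atp5e. Per kb of windows found once, control footprints were 3167 for Atp5c1, 15901 for Atp5a1, 26055 for Atp5b, 10879 for Atp5d and 7830 for Atp5e. On this scale each footprint ratio to Atp5c1 was smaller. The part of unique matching in these ratios was not tested. Sdha, the flavoprotein of complex II, carried 1.49 ± 0.0164 times the footprints per kb of its partner Sdhb, and Sdhc, a membrane anchor, 0.630 ± 0.0659 times those of the other anchor, Sdhd. In the transcriptome these ratios were 0.985 ± 0.136 and 1.41 ± 0.136, so that the anchors stood in the opposite order there.

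Several subunits have a general isoform and one known from particular tissues or states. The general form was ahead for each pair. Cox4i1 had 162 ± 60.5 times the footprints per kb of Cox4i2, a form linked to low oxygen. Cox6b1 had 17.6 ± 1.61 times those of the testis form Cox6b2, while in the transcriptome this ratio was 5.86 ± 0.247. Ndufa4 had 12.3 ± 2.42 times those of Ndufa4l2, a hypoxia-linked form, and Cox7a2 had 6.75 ± 3.32 times those of the muscle form Cox7a1. The last ratio rests on uneven libraries, because Cox7a2 carried 1135 normalised footprints in control 1 and 439 in control 2.

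**Figure D1:**
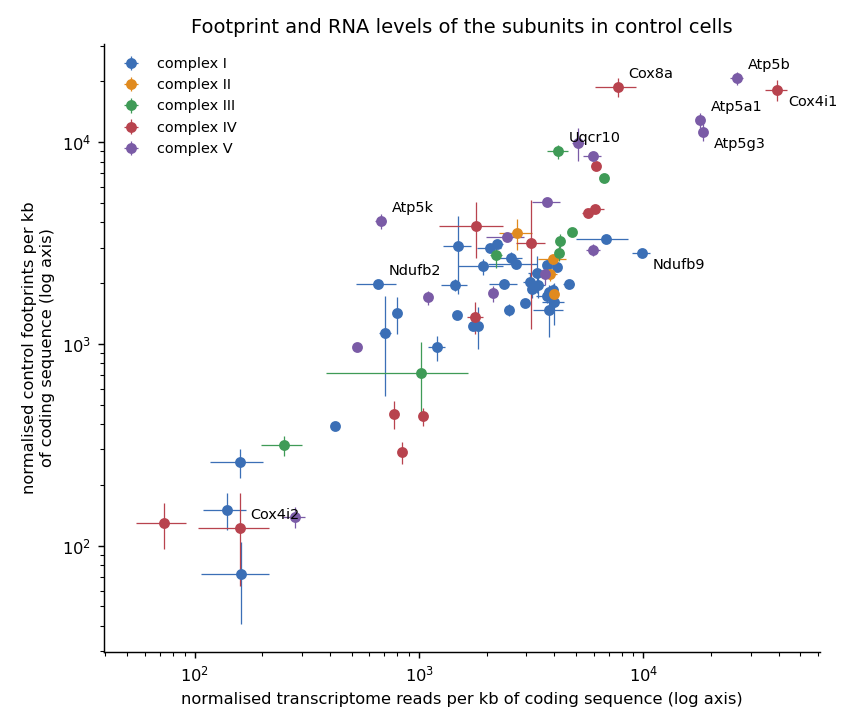
Normalised control footprints per kb of coding sequence (vertical) against normalised transcriptome reads per kb (horizontal), both on log axes, coloured by complex. Points are means of 2 libraries for 1 member and lines show the SD; Atp5b and Cox4i1 are high on both axes, and Atp5k, Ndufb2 and Cox8a lie above members with like RNA levels.

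Most members held more control footprints per transcriptome read than the typical transcript. The ratio was scaled so that the bulk of transcripts sits near 0 on the log2 scale, and edgeR called 66 of 74 members higher and 1 lower, where 34% of all 13717 coding sequences tested were called higher and 36.6% lower. The median log2 ratio was 1.09 for members and -0.05 for all. Within each length class members stayed above the median of all coding transcripts: 1.77 against 0.95 up to 300 nt, 1.25 against 0.76 from 300 to 500 nt, 0.86 against 0.42 from 500 nt to 1 kb, and 0.86 against -0.31 above 1 kb. The median was 0.90 in complex I, 0.76 in complex II, 1.25 in complex III, 1.11 in complex IV and 1.53 in complex V.

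Atp5k, the small e subunit of the membrane part of the ATP synthase, had the highest ratio. It carried 915 and 809 control footprints and only 149 and 138 transcriptome reads, a log2 ratio of 4.04 (standard error 0.13, adjusted p = 8.17e-12 in edgeR). Next came Ndufb2, an accessory subunit of complex I, at 2.998 and Cox8a at 2.72, both with an adjusted p of 3.3e-10. Of the short windows along Atp5k 31.5% occur more than once in the genome, against 12.6% for Ndufb2 and 11.8% for Cox8a. The part of unique matching in these ratios was not tested. The lowest was Ndufb9, another accessory subunit of complex I, with 1546 and 1501 footprints and 4930 and 5617 transcriptome reads and a log2 ratio of -0.34 (adjusted p = 0.00946). That call was lost without footprint control 1 (-0.29, adjusted p = 0.0733) and without transcriptome library 2 (-0.22, adjusted p = 0.127). Cox5b (-0.09) and Ndufa3 (0.05) did not pass the test.

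With each drug the footprints on member coding sequences fell. Summed over the members they were 155154 ± 11432 normalised footprints in the control (SD, n = 2), 10888 ± 3971 under DMDA-PatA, 32629 ± 8744 under harringtonine and 34610 ± 1185 under puromycin. Tested with edgeR over 12499 coding sequences, DMDA-PatA lowered 74 of 74 members tested, where 99.3% of all were lower and 0.056% higher. Harringtonine lowered 62 and raised 1, against 92.9% and 0.512% of all. Puromycin lowered 63 and raised 0, against 90.1% and 0.352% of all. The median log2 fold change of the members was -3.66, -2.15 and -1.71, and over all coding sequences tested it was -4.32, -2.97 and -2.48. The 3 members not tested were Cox7c, Atp5g1 and Atp5l, whose coding sequences were listed at 0 in every library, and 100%, 80.7% and 100% of the windows of 30 bases in them occur more than once in the genome. The part of unique matching in these values was not tested, and Atp5g1 has 73 windows that occur once. Windows were counted only for the 61 members whose listed start lay on an ATG. The 16 others have no such share, among them Cox5b, Ndufs8, Sdhd, Ndufa4, Ndufa4l2, Cox7a1 and Cox7a2.

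The fall was also read as fold inhibition, the mean normalised control value over the mean with the drug. The 68 members with at least 100 control footprints and 100 transcriptome reads were inhibited by a median of 13.3 ± 6.21 fold by DMDA-PatA, 4.44 ± 1.03 fold by harringtonine and 3.17 ± 0.405 fold by puromycin (SD of the 2 replicate pairs). All 8461 coding transcripts past the same cutoffs gave 22.4 ± 8.20, 8.70 ± 2.85 and 6.32 ± 0.629 fold. The replicate pairs of DMDA-PatA gave 18.8 and 10.0 fold for members, a wider gap than that between the complexes. With DMDA-PatA the medians were 10.6 fold in complex I, 15.8 in II, 14.7 in III, 14.5 in IV and 17.8 in V. With harringtonine they were 3.77, 11.2, 4.72, 5.87 and 4.41 fold, and with puromycin 3.003, 6.68, 3.27, 3.31 and 3.09 fold. Complex II, whose coding sequences are the longest, had the largest median with both of these drugs.

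**Figure D2:**
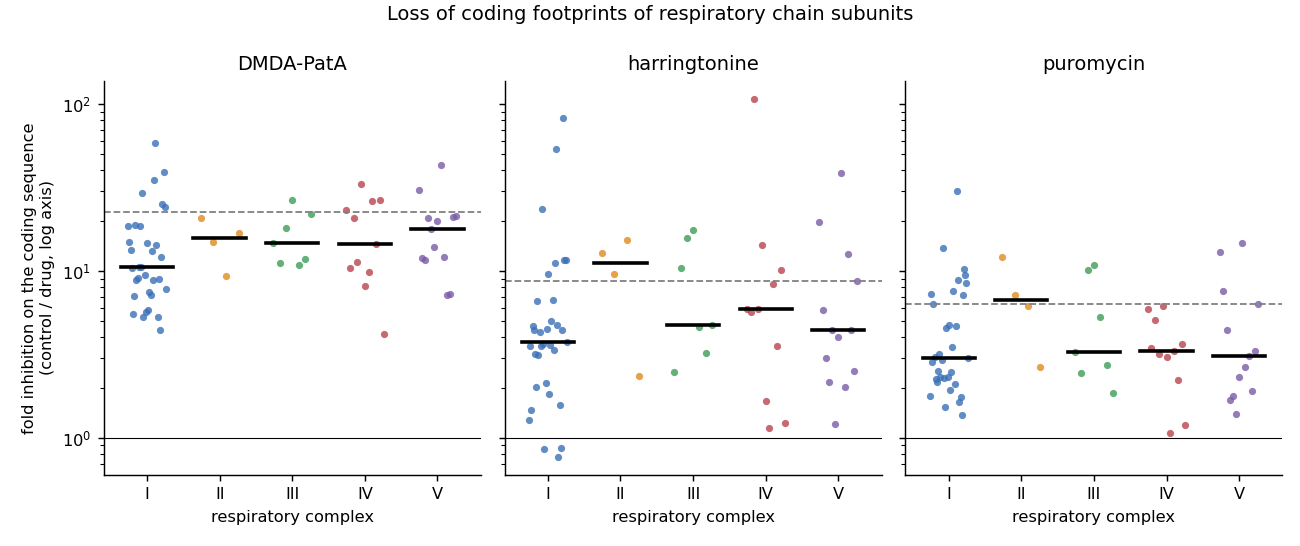
Fold inhibition of coding footprints (control over drug, log axis) by complex, with 1 panel for each drug. Points are members past the cutoffs, thick bars medians of each complex, the dashed line the median of all coding transcripts and the thin line no change; complex II has the highest median with harringtonine (11.2 fold) and puromycin (6.68 fold).

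The core of complex I that takes electrons from NADH was strongly inhibited. Ndufs1, its large iron-sulfur subunit, carried 3372 and 3065 normalised footprints in the control, 49.9 and 60.1 under DMDA-PatA, 78.1 and 41.3 under harringtonine and 70.3 and 143 under puromycin. Every drug library lay below both controls by more than the replicates differed. Its log2 fold changes were -5.87 (standard error 0.55, adjusted p = 1.43e-25 in edgeR), -5.76 and -4.89, and the first and the last were the largest falls in complex I. Ndufv1, which binds NADH, had log2 fold changes of -5.29, -3.54 and -3.23 in the same order, and its neighbour Ndufv2 of -4.60, -3.54 and -3.08. Ndufs7, which lies near the quinone site, had log2 fold changes of -3.60 under DMDA-PatA, -2.14 under harringtonine and -2.85 under puromycin.

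Ndufs8, an iron-sulfur subunit of the same arm, differed from these in its response to harringtonine. It had 910 and 859 control footprints, 25.9 and 44.6 under DMDA-PatA, 15.2 and 6.30 under harringtonine and 76.5 and 97 under puromycin. The harringtonine libraries were thus below the DMDA-PatA libraries. Its log2 fold changes against the control were -4.66, -6.41 and -3.34, each called in edgeR.

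Some complex I subunits did not pass the test with harringtonine or puromycin. Ndufs6, an accessory subunit with a zinc site and ATGGCGGC at its start, had 301 and 368 control footprints, 58.7 and 92.5 under DMDA-PatA, 422 and 348 under harringtonine and 215 and 274 under puromycin. Only the DMDA-PatA libraries stood far below the controls. The log2 fold change was -2.15 with DMDA-PatA (adjusted p = 1.78e-06 in edgeR), 0.20 with harringtonine (adjusted p = 0.643) and -0.45 with puromycin (adjusted p = 0.307). Ndufs3, a core subunit, had 101 and 137 control footprints and 69.0 and 241 with harringtonine, so that the harringtonine replicates lay on either side of the control. Its log2 fold changes of 0.39 with harringtonine and -0.73 with puromycin did not pass the test, and that with DMDA-PatA was -2.42 (adjusted p = 2.52e-07). The puromycin value was called when harringtonine library 1 or 2 was left out (-0.75 for each, adjusted p = 0.0246 and 0.0255). Of its windows of 30 bases 54.2% are repeated in the genome, so its level is uncertain, and without harringtonine library 2 the harringtonine value was -0.79 (adjusted p = 0.0489), while without library 1 it was 1.01 (adjusted p = 0.00338).

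The 1 member called higher on its coding sequence with any drug was Ndufa12, an accessory subunit. It carried 41.3 and 21.8 control footprints, 3.16 and 11.4 under DMDA-PatA, 74.1 and 82.6 under harringtonine and 24.8 and 8.70 under puromycin. Both harringtonine libraries exceeded both controls. The log2 fold change was 1.33 (standard error 0.46, adjusted p = 0.00403 in edgeR), but without control library 2 it was 0.92 and not called (adjusted p = 0.199), and 59.1% of its windows are repeated in the genome. The smallest fall with DMDA-PatA in complex I was that of Ndufa4l2, from 75.4 and 59.8 footprints to 13.9 and 31.7, a log2 fold change of -1.58.

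In complex II the anchor Sdhd fell less than the other 3 subunits with harringtonine and puromycin. Sdha, which oxidises succinate, had 5363 and 5115 control footprints, 210 and 296 under DMDA-PatA, 455 and 360 under harringtonine and 393 and 475 under puromycin. Its log2 fold changes were -4.37, -3.68 and -3.59, and those of Sdhb, the iron-sulfur subunit, were -3.90, -3.27 and -2.84. All 4 subunits were lowered by each drug. Sdhd kept 999 and 444 of 1903 and 1482 footprints with harringtonine (log2 fold change -1.23, adjusted p = 0.0062 in edgeR) and 699 and 579 with puromycin (-1.41, adjusted p = 0.00216), whereas the other anchor, Sdhc, kept 87.3 and 60.2 of 1180 and 1066 with harringtonine (-3.93). The calls of Sdhd were lost without control library 1 (adjusted p = 0.107 with harringtonine and 0.0631 with puromycin), without harringtonine library 2 (adjusted p = 0.0626) and without puromycin library 2 (adjusted p = 0.0632). With DMDA-PatA the anchors had log2 fold changes of -4.07 (Sdhd) and -3.22 (Sdhc).

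In complex III every subunit was lowered by every drug. Uqcrc1 and Uqcrc2, the large core proteins, had 5284 and 5053 and 4078 and 3615 control footprints and log2 fold changes of -4.17 and -4.73 under DMDA-PatA, -3.97 and -4.14 under harringtonine and -3.34 and -3.44 under puromycin. The Rieske protein Uqcrfs1, which carries the mobile iron-sulfur cluster, fell less, with -3.45, -2.21 and -2.40. Uqcrb, a small subunit near the quinone site, had 113 and 96.1 control footprints and 4.06 and 0.700 with harringtonine, a log2 fold change of -5.55. With 79.9% of its windows repeated in the genome its level is uncertain. The smallest falls were those of Uqcr10 with harringtonine (-1.31), not called without control library 1 (-1.23, adjusted p = 0.0562), and of Uqcrq with puromycin.

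Uqcrq, a small subunit that helps to hold the quinone, had 1646 and 1639 control footprints on its coding sequence, 53.7 and 96.6 under DMDA-PatA, 394 and 302 under harringtonine and 877 and 903 under puromycin. The puromycin libraries lay between the controls and the other drugs. The log2 fold change with puromycin was -0.88 with an adjusted p of 0.0495 in edgeR, and it did not pass without any 1 of the control or puromycin libraries (adjusted p from 0.172 to 0.191).

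In complex IV the subunits ranged from nearly full loss to no detectable change. Cox4i1, a regulatory subunit of cytochrome c oxidase, had 9955 and 8397 control footprints, 299.9 and 488 under DMDA-PatA, 2016 and 1092 under harringtonine and 1369 and 1742 under puromycin. Its log2 fold changes were -4.54, -2.56 and -2.56, all called in edgeR. Cox5a had -3.38, -2.51 and -1.78. Cox6b1, which faces the intermembrane space, had the largest fall of the complex with DMDA-PatA (-5.06) and with puromycin (-2.62). Cox5b, a zinc-binding subunit, had 123 and 102 control footprints and 0 and 2.10 with harringtonine, and its log2 fold change of -6.39 rests on those few reads.

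Cox8a, a short transmembrane subunit, kept most of its footprints with harringtonine and puromycin. It had 4190 and 3586 in the control, 639 and 1211 under DMDA-PatA, 2787 and 3549 under harringtonine and 3284 and 3257 under puromycin. The harringtonine and puromycin libraries lay just below the controls, and only DMDA-PatA stood apart. The log2 fold change was -2.07 with DMDA-PatA (adjusted p = 1.04e-05 in edgeR), -0.30 with harringtonine (adjusted p = 0.522) and -0.25 with puromycin (adjusted p = 0.59). The values for Cox6c, another short transmembrane subunit, were 1068 and 685 in the control, 70.1 and 108 under DMDA-PatA, 1018 and 516 under harringtonine and 846 and 800 under puromycin. Its log2 fold changes were -3.30 (adjusted p = 9.53e-12), -0.19 (adjusted p = 0.665) and -0.09 (adjusted p = 0.84), and 56.8% of its windows are repeated in the genome. With the DMDA-PatA and harringtonine scaling swapped its fall with harringtonine was called (-0.51, adjusted p = 0.0317).

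In complex V the catalytic subunits fell together. Atp5b had 34748 and 31223 control footprints, 1959 and 3555 under DMDA-PatA, 6607 and 4684 under harringtonine and 3892 and 4789 under puromycin, which gave log2 fold changes of -3.58, -2.55 and -2.93. Atp5a1 had 22554 and 20093, then 583 and 819, 1520 and 649, and 1824 and 1461 in the same order, with log2 fold changes of -4.93, -4.30 and -3.70. The beta subunit thus kept a larger part of its footprints than the alpha subunit with each drug. Atp5c1, the shaft, had -3.54, -1.60 and -2.14, and Atp5g3, a ring subunit, -4.32, -2.02 and -1.21. The puromycin call of Atp5g3 was lost without control library 1 (adjusted p = 0.0942) or either puromycin library (adjusted p = 0.0636 and 0.0995).

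The other members of complex V covered a wide range. Atp5d and Atp5e had log2 fold changes of -4.38 and -4.17 under DMDA-PatA and -1.12 and -2.16 under harringtonine, and their values of -0.76 and -0.83 with puromycin did not pass the test. Both passed when either harringtonine library was left out (adjusted p = 0.0226 and 0.0228 for Atp5d, 0.00708 and 0.00737 for Atp5e) and with the DMDA-PatA and harringtonine scaling swapped (0.00316 and 0.00089), Atp5d also by DESeq2 (0.0274), and Atp5e without either DMDA-PatA library (0.0474 for each). The harringtonine call of Atp5d was lost without either control library (adjusted p = 0.0873 and 0.0802). Atp5h, a stalk subunit, had the largest falls of the complex with harringtonine (-5.31) and puromycin (-3.87), while Atp5f1 of the same stalk had 1377 and 1233 control footprints, 124 and 62.5 under DMDA-PatA, 1106 and 1038 under harringtonine and 970 and 897 under puromycin. Atp5f1 was therefore low with DMDA-PatA alone, with log2 fold changes of -3.80 (adjusted p = 2.79e-14 in edgeR), -0.28 (adjusted p = 0.527) and -0.48 (adjusted p = 0.283). Repeated windows made up 69.2% of Atp5h and 54.8% of Atp5f1. Atp5s had 90.8 and 76.1 control footprints and 0.631 and 0.812 with DMDA-PatA, which is 1 read in each library, and the smallest fall of the complex was that of Atp5j2, a membrane subunit, at -2.85.

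Relative to the typical transcript the members were mostly above with all 3 drugs. On this scale, set by TMM factors, a fall shared by all transcripts is taken out, and the median of all transcripts moved from -4.32, -2.97 and -2.48 to -0.16, -0.14 and -0.06. With DMDA-PatA 33 members were higher and 9 lower by edgeR, where 17.7% of all coding sequences were higher and 25% lower. With harringtonine 43 were higher and 18 lower against 26.2% and 30.7% of all, and with puromycin 40 were higher and 12 lower against 23.8% and 25.4%. The median relative log2 change of members was 0.53, 0.66 and 0.73. Without DMDA-PatA library 2 the 33 became 15, and without control library 1 they became 21. Transcriptome reads come from untreated cells only, so mRNA levels under the drugs were not measured. Whole-culture extracts also do not show which cells the footprints came from.

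Complex I, the largest, held 20 of the 33 members higher with DMDA-PatA, 25 of the 43 with harringtonine and 20 of the 40 with puromycin. With DMDA-PatA the largest relative log2 changes were 2.56 for Ndufa4l2, 2.07 for Cox8a, 2.01 for Ndufa12, 2.00 for Ndufs6 and 1.76 for Ndufb11. The lowest were -2.63 for Atp5s, -1.67 for Ndufs1, -1.25 for Atp5h, -1.14 for Ndufv1 and -1 for Ndufc2. Without DMDA-PatA library 2 neither Ndufa12 (1.14, adjusted p = 0.456 in edgeR) nor Atp5s (-2.59, adjusted p = 0.142) was called, and Atp5s was not called without library 1 either (-2.82, adjusted p = 0.0854).

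With harringtonine the highest relative changes were 4.27 for Ndufa12, 3.46 for Ndufs3, 3.07 for Ndufs6, 2.99 for Ndufb11 and 2.68 for Cox8a. The lowest were -3.58 for Ndufs8, -3.55 for Cox5b, -2.94 for Ndufs1, -2.73 for Uqcrb and -2.49 for Atp5h. With puromycin they were 2.36 for Cox6c, 2.19 for Cox8a, 1.98 for Ndufs6, 1.95 for Atp5f1 and 1.86 for Ndufb11 at the top, and -2.42 for Ndufs1, -1.45 for Atp5h, -1.31 for Ndufa9, -1.26 for Atp5a1 and -1.15 for Sdha at the bottom. The 3 comparisons share the control libraries.

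Coding length moved with these values, and members were therefore set beside coding transcripts of the same length. Up to 300 nt the median inhibition of members and of all coding transcripts was 11.5 and 12.6 fold for DMDA-PatA, 3.46 and 2.16 fold for harringtonine and 2.35 and 1.93 fold for puromycin. From 300 to 500 nt it was 10.6 and 14.2, 3.77 and 3.08, and 2.85 and 2.497 fold, and from 500 nt to 1 kb 13.97 and 18.7, 5.00 and 5.71, and 5.28 and 4.11 fold. Above 1 kb, with 10 members, it was 19.4 and 24.6, 14.3 and 10.6, and 10.51 and 7.89 fold. Within these classes, which are broad and in which lengths were not matched, members lay below all coding transcripts in fold inhibition by DMDA-PatA in each class, and above them by puromycin in each class. By harringtonine they were above in all classes but that from 500 nt to 1 kb. No test was made of these differences.

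On the relative scale, where a higher value is a smaller loss, members of these lengths were also set beside all. Up to 300 nt the median relative log2 change was 0.68 for 23 members and 0.63 for all 330 coding sequences under DMDA-PatA, 1.06 and 1.85 under harringtonine and 1.18 and 1.57 under puromycin. From 300 to 500 nt it was 0.74 and 0.45, 1.02 and 1.23, and 0.88 and 1.18, and from 500 nt to 1 kb 0.43 and 0.07, 0.25 and 0.40, and -0.06 and 0.48. Above 1 kb it was -0.11 and -0.32, -0.96 and -0.45, and -0.95 and -0.40. From 500 nt to 1 kb, harringtonine thus left members below all coding sequences on this scale, although their fold inhibition was the smaller. Across the 68 members, Spearman's rho between coding length and fold inhibition was 0.27 under DMDA-PatA, 0.36 under harringtonine and 0.63 under puromycin, and that of 5' UTR length was 0.26, 0.03 and -0.02. These describe the members within the same libraries, and members are not independent replicates. By 5' UTR length, DMDA-PatA inhibited members by 11.4 fold and all coding transcripts by 14.9 fold from 25 to 100 nt, by 18.5 and 25.4 fold from 100 to 300 nt, and by 11.2 fold (6 members) and 31.2 fold above 300 nt.

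**Figure D3:**
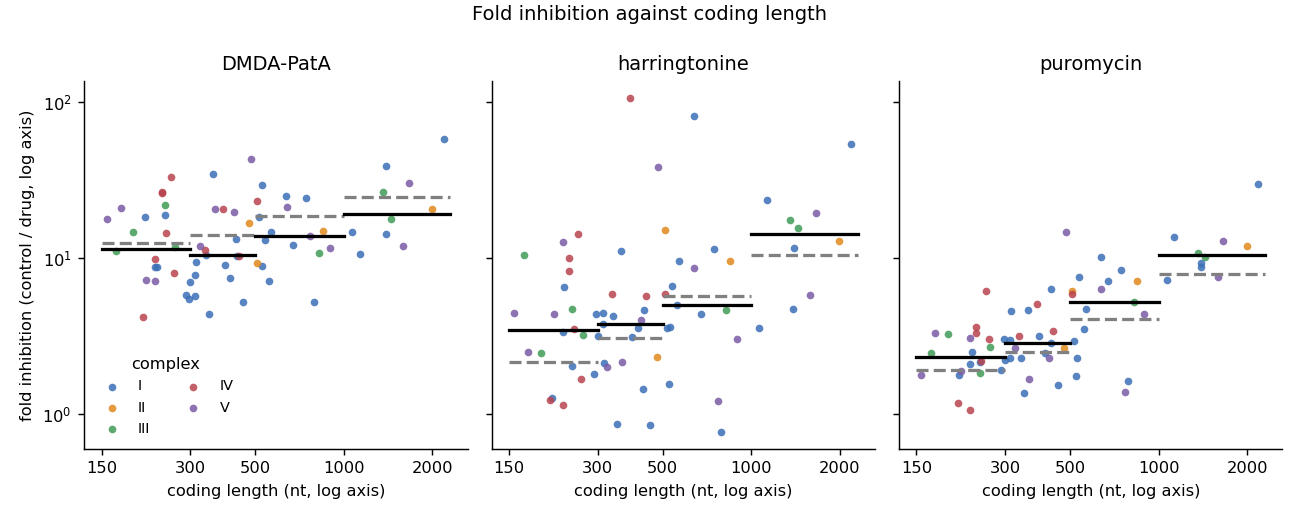
Fold inhibition (control over drug) against coding length in nt, both on log axes, with 1 panel for each drug and points for members coloured by complex. Solid bars are medians of members and dashed bars medians of all coding transcripts in each length class; the rise with length is seen in both, from 2.35 to 10.51 fold for members with puromycin.

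The 5' UTRs behaved unlike the coding sequences. In its own leader comparison the study trimmed the end of each 5' UTR, because footprints at the start codon can spill over. No trimming was added here, and the part of such reads was not tested. Of member reads on the 5' UTR and coding sequence together, 1.61% and 1.62% lay on the 5' UTR in the control libraries, while DMDA-PatA gave 36.8% and 34.3%, harringtonine 19.9% and 23.6%, puromycin 8.09% and 7.99%, and the transcriptome held 4.12% and 3.95%. For all coding transcripts they were 4.01% and 4.27%, 38.2% and 38.6%, 29.1% and 32.8%, 20.4% and 17.7%, and 4.18% and 3.97%. The drug groups did not overlap with the control or with each other. The exact binomial 95% interval was 36.2% to 37.5% for the first DMDA-PatA library and 7.69% to 8.498% for the first puromycin library, and it covers counting error only. Members started from a lower share than all coding transcripts in the control and came close to them only with DMDA-PatA.

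The complexes differed in this share. In complex IV it was 55.7% and 49.4% with DMDA-PatA and 11.6% and 12.3% with harringtonine. In complex III both drugs gave like shares, 42.6% and 42.4% with DMDA-PatA and 42.5% and 47.0% with harringtonine, and puromycin gave 22.0% and 22.6%. Complex II had the lowest share with DMDA-PatA, at 9.02% and 7.15%, from 68 reads in each library. It had risen from 0.0473% and 0.0595% in the control, and its transcriptome share was 0.326% and 0.362%. The control shares were 4.72% and 4.09% in complex III and 1.71% and 1.74% in complex IV. In the transcriptome these were 6.03% and 5.05%, and 6.41% and 5.92%. Single genes set part of this. Without Cox8a complex IV gave 49.7% and 44.0% with DMDA-PatA and 14.5% and 20.48% with harringtonine. Without Uqcrq complex III gave 34.7% and 32.4% under DMDA-PatA, 18.5% and 19.2% under harringtonine and 8.44% and 8.92% under puromycin.

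**Figure D4:**
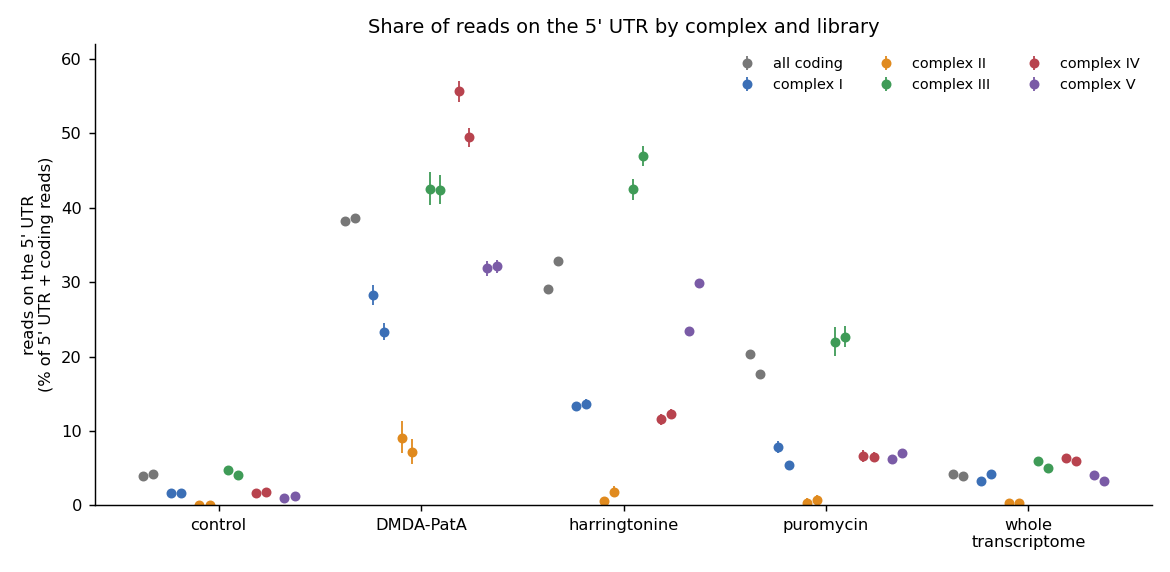
Reads on the 5' UTR as a percent of reads on the 5' UTR and coding sequence in each of the 10 libraries, for the 5 complexes and, in grey, all coding transcripts. Points are libraries and lines exact binomial 95% intervals; complex IV stands highest with DMDA-PatA (55.7% and 49.4%) and complex III with harringtonine (42.5% and 47.0%).

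Of the 5' UTRs, 47 members had enough reads to test. A leader could pass this read filter through the libraries of 1 drug alone, and it was then bound to look higher there. The counts below include such leaders, as with Sdha, Sdhd and Uqcr10. Without the filter 24 of 68 members were higher and 2 lower with DMDA-PatA, against 1062 and 1938 of all 11978. With harringtonine 26 were then higher and 1 lower, against 2307 and 340. With DMDA-PatA 23 were higher and 3 lower by edgeR, against 14.7% and 29% of the 6647 tested. With harringtonine 28 were higher and 1 lower against 35.1% and 5.21%, and with puromycin 1 was higher and 0 lower against 0.557% and 0.406% (2 members at an unadjusted p under 0.05). With TMM factors of the coding sequences, which take out the shared fall, 44, 46 and 35 were higher and 0 lower. Of all 6647 tested, 6247, 6435 and 5810 were then higher and 11, 10 and 7 lower, so most leaders rose on this scale. Leaving out control library 2 took the 26 changed with DMDA-PatA to 17 and the 29 with harringtonine to 16, DMDA-PatA library 2 took the 26 to 17, and harringtonine library 1 took the 29 to 17. Complex V had the most, with 9 of 12 higher with DMDA-PatA and 11 of 12 with harringtonine. DMDA-PatA had more footprints on the 5' UTR than on the coding sequence, in both libraries, for 21 of the 72 members with at least 10 reads in each library (29.2%, against 30.0% of all coding transcripts), and 7 of these 21 were among 12 of complex IV. With harringtonine this was so for 12 of 72 members (16.7% against 27.4%), with puromycin for 0 of 69 (against 12.8%) and in the control for 0 of 74 (against 2.15%). The members counted with DMDA-PatA include Cox7c, of complex IV, and Atp5l, and Cox7c was also counted with harringtonine. Both have coding sequences listed at 0 in every library, so their place in these counts was fixed by their leader reads alone.

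Cox8a rose most among the abundant 5' UTRs with DMDA-PatA. Its leader of 104 nt carried 56.6 and 43.5 normalised footprints in the control, 989 and 1425 under DMDA-PatA, 194 and 199 under harringtonine and 124 and 129 under puromycin. The DMDA-PatA libraries were far above all others, and Cox8a held 20.98% and 19.9% of all member 5' UTR footprints. The log2 fold change was 4.59 with DMDA-PatA (standard error 0.51, adjusted p = 1.65e-16 in edgeR) and 1.97 with harringtonine (adjusted p = 0.000244). With puromycin it was 1.34 and did not pass (adjusted p = 0.173).

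Cox4i1 and Atp5a1 also gained 5' UTR footprints while their coding sequences lost them. The Cox4i1 leader had 15.3 and 10.9 in the control, 217 and 286 under DMDA-PatA, 25.4 and 22.4 under harringtonine and 20.7 and 22.4 under puromycin. Only DMDA-PatA was called, at a log2 fold change of 4.26 (adjusted p = 1.62e-12 in edgeR). The Atp5a1 leader had 4.72 and 15.4, then 226 and 266, 107 and 28.0, and 18.6 and 12.4 in the same order, with log2 fold changes of 4.54 with DMDA-PatA and 2.65 with harringtonine (adjusted p = 1.25e-13 and 2.45e-05). In contrast the leader of Atp5b, of 54 nt, held 0 footprints in 7 of the 8 footprint libraries and 0.700 in the other.

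In complex II Sdha gained from 0 and 0.906 to 27.8 and 39.8 footprints on the 5' UTR with DMDA-PatA, and 1.01 and 3.5 were seen with harringtonine. The log2 fold change with DMDA-PatA was 5.75 (adjusted p = 1.21e-07 in edgeR). The leaders of Sdha and Sdhd passed the read filter only through their DMDA-PatA libraries, with 44 and 49 and with 17 and 12 reads. Their rises with that drug are therefore not independent of the filter. The leaders of Sdhd and Atp5l held 0 reads in both controls, so no fold is given. With DMDA-PatA they held 10.7 and 9.74 (adjusted p = 0.000394) and 12 and 10.6 (adjusted p = 0.000129), and with harringtonine 6.09 and 0.700 (adjusted p = 0.0421) and 3.04 and 17.5 (adjusted p = 0.000223). The harringtonine call of Sdhd was lost without any 1 of the control or harringtonine libraries but harringtonine library 2 (adjusted p from 0.137 to 0.453), and that of Atp5l without harringtonine library 2 (adjusted p = 0.0832).

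The leaders of Atp5j and Atp5d were called higher with harringtonine and not with DMDA-PatA, while others, such as Cox8a, Atp5a1 and Ndufb6, were called with both. The Atp5j leader, of a coupling subunit of the stalk, had 92.0 and 121 in the control, 62.5 and 108 with DMDA-PatA and 1436 and 1011 with harringtonine. That of Atp5d had 158 and 230, then 136 and 260, then 1072 and 1196. Both were high with harringtonine alone, with log2 fold changes of 3.51 and 2.54 (adjusted p = 6.64e-11 and 9.76e-07 in edgeR). Uqcrq, the highest leader of the control at 496 and 523, had 177 and 354 under DMDA-PatA, 1526 and 1373 under harringtonine and 651 and 721 under puromycin. Its log2 fold change with harringtonine was 1.51 (adjusted p = 0.00297), which did not pass without control library 1 (adjusted p = 0.0784) or 2 (0.0691). Atp5g3 rose with both drugs, from 307 and 389 to 530 and 1084 with DMDA-PatA (1.21, adjusted p = 0.0161) and 1437 and 1546 with harringtonine (2.10, adjusted p = 3.69e-05).

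Uqcr10, a small subunit of complex III, and Cox7c, a small subunit of complex IV without unique coding reads, rose with harringtonine by 4.31 and 4.21 on the log2 scale. Uqcr10 had 1.18 and 0.906 in the control, 0 and 0 under DMDA-PatA, 18.3 and 26.6 under harringtonine and 0 and 0 under puromycin. Cox7c had 1.18 and 1.81 in the control, 11.4 and 16.2 with DMDA-PatA and 32.5 and 28.7 with harringtonine. Both leaders were thus highest with harringtonine. That of Uqcr10 passed the read filter only through its harringtonine libraries, so its rise there is not independent of the filter. The 1 fall with harringtonine was that of Uqcrc1, from 44.8 and 34.4 to 10.1 and 8.40 (log2 fold change -2.09, adjusted p = 0.00195 in edgeR), and it turned to 0.75 when the fall of all coding sequences was taken out with TMM factors.

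The leader of Ndufb6, an accessory subunit of complex I, rose with all 3 drugs. It had 1.18 and 0 in the control, 30.3 and 30.8 under DMDA-PatA, 41.6 and 15.4 under harringtonine and 14.5 and 14.9 under puromycin. Every drug library lay above both controls. The Ndufb6 leader passed the read filter through drug libraries only. The log2 fold changes were 5.59, 5.47 and 4.55 (adjusted p = 9.16e-08, 4.17e-07 and 0.00639 in edgeR), but with puromycin the call was lost when any 1 control or puromycin library was left out (adjusted p from 0.0633 to 0.416). The 3 falls with DMDA-PatA were in complex I: Ndufb8 from 2.36 and 2.72 to 0 and 0, Ndufa12 from 10.6 and 4.53 to 0.631 and 1.62, and Ndufc2 from 185 and 199 to 75.1 and 106. Ndufb8 (adjusted p = 0.0238) and Ndufc2 (log2 fold change -1.08, adjusted p = 0.041) were not called without either control library or without DMDA-PatA library 1, with adjusted p from 0.0538 to 0.117 and from 0.137 to 0.181, nor Ndufb8 without library 2 (adjusted p = 0.0685), nor Ndufc2 without either puromycin library (adjusted p = 0.0701 and 0.0694). With TMM factors Ndufc2 (3.05) and Ndufa12 (1.35) had the opposite sign. Ndufa12 (-2.65, adjusted p = 0.0211) was not called without control library 1 (adjusted p = 0.227) or DMDA-PatA library 1 (adjusted p = 0.151).

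**Figure D5:**
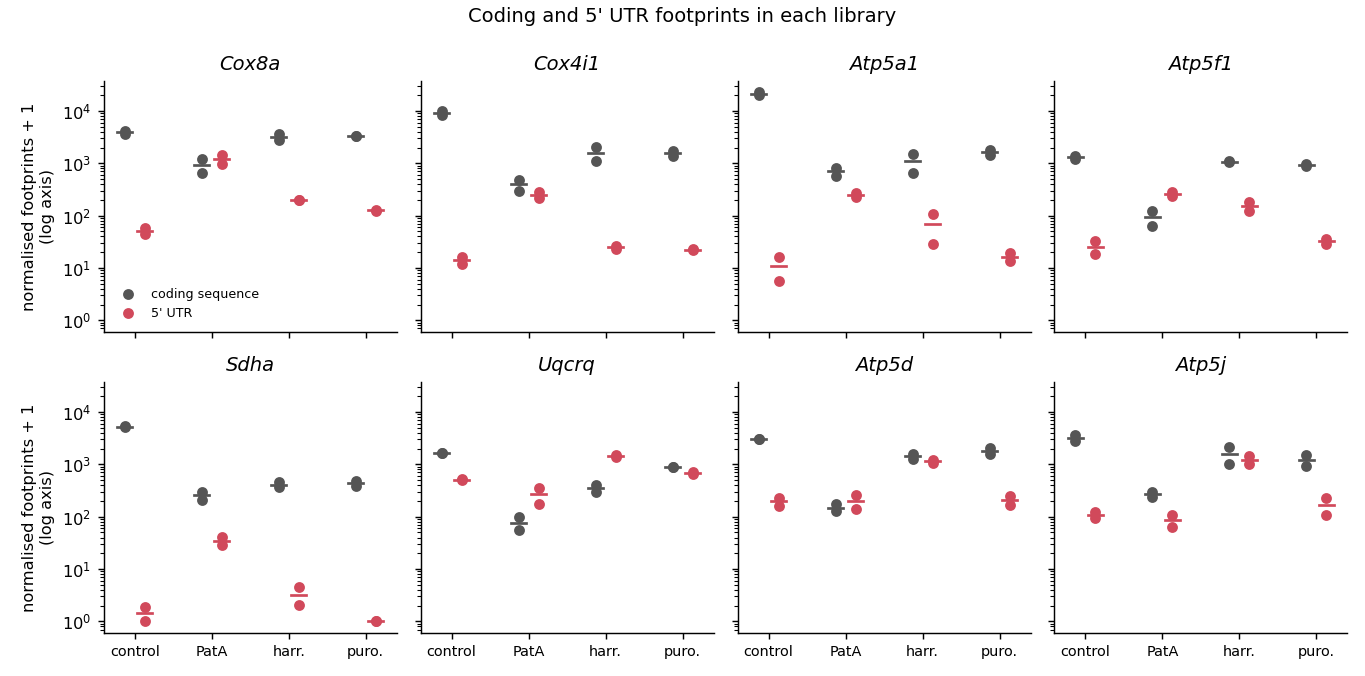
Normalised footprints plus 1 on the coding sequence (grey) and the 5' UTR (red) of 8 members in each of the 8 footprint libraries, on a log axis. Points are libraries and bars means of 2; the 5' UTRs of Cox8a, Cox4i1, Atp5a1, Atp5f1 and Sdha are highest with DMDA-PatA, and those of Uqcrq, Atp5d and Atp5j with harringtonine.

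The drugs were also compared directly on the coding sequences. Between DMDA-PatA and harringtonine 48 of 74 members were lower and 2 higher with DMDA-PatA by edgeR, where 52.8% of all were lower and 0.432% higher. Between DMDA-PatA and puromycin 59 were lower and 0 higher, against 67.4% and 0.432%. Between harringtonine and puromycin, given for different times, 11 were lower with harringtonine and 1 higher, against 9.94% and 1.2%. The largest difference between DMDA-PatA and harringtonine was that of Ndufa1, a small accessory subunit of complex I, with 24.6 and 44.6 footprints with DMDA-PatA and 699 and 304 with harringtonine (log2 difference -3.86, adjusted p = 9.83e-13). In the other direction were Ndufs8 (1.75, adjusted p = 0.00346) and Ndufa9 (1.16, adjusted p = 0.0234), an accessory subunit with 150.3 and 269 footprints with DMDA-PatA and 134 and 54.6 with harringtonine. Without DMDA-PatA library 2 neither was called (1.32, adjusted p = 0.0542, and 0.69, adjusted p = 0.238), and Ndufa9 was not called without harringtonine library 2 (0.64, adjusted p = 0.159).

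Between harringtonine and puromycin the largest differences were those of Cox5b (-4.06, adjusted p = 5.61e-05 in edgeR), Uqcrb (-3.49, adjusted p = 0.000154) and Ndufs8 (-3.07, adjusted p = 4.02e-06), all lower with harringtonine. Ndufa12 was higher (2.33, adjusted p = 0.000647). Without puromycin library 2 the differences of Uqcrb (-3.07, adjusted p = 0.0607) and Ndufa12 (1.66, adjusted p = 0.216) were not called, and without puromycin library 2 the 12 differing members became 2, without puromycin library 1 6 and without harringtonine library 1 33. The count between DMDA-PatA and harringtonine, 50, became 33 without DMDA-PatA library 1.

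Genes that build or feed the chain were counted beside the members. Of 46 assembly factors tested, 46 were lower under DMDA-PatA, 37 under harringtonine and 37 under puromycin, with median log2 fold changes of -3.65, -2.27 and -2.10, where 99.3%, 92.9% and 90.1% of all coding sequences were lower. The 14 enzymes of the citrate cycle were lower with each drug, with medians of -4.38, -3.44 and -3.01. On the relative scale 18, 22 and 18 assembly factors were higher and 5, 8 and 5 lower, and 3, 3 and 1 citrate cycle enzymes were higher and 2, 9 and 7 lower, where 17.7%, 26.2% and 23.8% of all were higher and 25%, 30.7% and 25.4% lower. In control cells 33 of 47 assembly factors and 12 of 14 citrate cycle enzymes were called higher in footprints per transcriptome read and 2 and 0 lower, against 34% higher and 36.6% lower of all. Of 8 subunits and carriers outside the symbol rule 5 could be tested, such as cytochrome c1 (Cyc1), while cytochrome c (Cycs) was listed at 0 in every library. Of the genes tested DMDA-PatA lowered 5, harringtonine 3 and puromycin 2.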

How the data were processed

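The labels and the study's methods gave 4 conditions with 2 footprint libraries each and 2 transcriptome libraries. The authors sequenced SOLiD reads, aligned them to mm10 with LifeScope, kept unique matches with 26 to 36 matched nucleotides, shifted each read by a calibrated offset, counted it on the 5' UTR or ORF of 1 transcript per gene, and scaled footprints to spike-in reads and transcriptome reads between replicates. Picard 1.38 is named in the submitters' processing notes. The deposited values are a signal: whole reads multiplied by 1 factor a library and region. Dividing by that factor gave whole reads within 0.1 read for 100% of values, and these counts were tested with edgeR 4.0.16 (limma 3.58.1, R 4.3.3) by its quasi-likelihood F test, with p-values adjusted after Benjamini and Hochberg and called at 0.05. The deposited scale was kept, or TMM factors set the relative scale, and a feature needed 10 reads or more in 2 libraries. All conditions shared 1 fit. The tests had been planned for counts. DESeq2 1.42.0 and limma were alternatives. GENCODE M21 gave the symbols, the positions and the start codons. Summaries used Python 3.11.15 with pandas 2.3.3 and scipy 1.17.1.

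The members and lists were chosen with earlier results of these data known. Members were named by fixed rules: core subunits, isoform pairs, the largest and smallest change per complex and drug, up to 5 per direction for relative values and 5' UTRs, and the 3 extremes of footprints per transcriptome read; others were named after their values were seen. On simulated counts, 12% of log2 changes of 1 and 99% of changes of 3 were recovered over 11901 coding features. The simulation held no shared fall with the drugs, so its drug libraries were deeper than the real ones. Recovery at the real depth of the drug libraries was not measured. A supplementary sheet of the study applies the DMDA-PatA and harringtonine scaling factors the other way round, so values as deposited were used and the exchange was an alternative.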

Additional observations from a re-analysis of the deposited data

How the results depend on the processing

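Of the main results under each alternative, 195 kept their direction and stayed within the limits set, 17 were weaker, 6 stronger and 4 moved; of the values of single members and complexes, 2221 kept theirs, 63 were weaker, 13 stronger, 22 moved and 10 reversed. TMM normalization, which takes out the shared fall, left 9, 18 and 12 members lowered on the coding sequence by DMDA-PatA, harringtonine and puromycin, and with TMM factors over coding sequences 44, 46 and 35 members changed on the 5' UTR. Of all 6647 leaders tested, 6247, 6435 and 5810 were then higher. Equal total reads gave median folds of 0.6302, 0.6919 and 0.5795 for the 3 drugs. With the scaling of both these drugs swapped, 2 members changed on the 5' UTR with puromycin and 42 differed between harringtonine and puromycin. With the replicate block 7 differed between harringtonine and puromycin, and no other count of the main results moved by over 1.5 times; the replicate numbers share no day or culture in the labels, the deviations of same-numbered libraries correlated at 0.0023 to 0.060, and the calls of Ndufa9 (between DMDA-PatA and harringtonine), Uqcrq (puromycin), Ndufc2 (5' UTR, DMDA-PatA) and Sdhd (5' UTR, harringtonine) were lost under the block. Leaving out 1 library at a time, the lowest and highest counts were 74 and 74, 53 and 68, and 49 and 70 lowered members, 15 and 34, 33 and 43, and 31 and 41 relatively higher members, 7 and 11, 15 and 18, and 11 and 16 relatively lower members, and 17 and 26, 16 and 29, and 0 and 1 changed 5' UTRs with DMDA-PatA, harringtonine and puromycin. They were 33 and 59 between DMDA-PatA and harringtonine, 40 and 65 between DMDA-PatA and puromycin, 2 and 33 between harringtonine and puromycin, and 60 and 65 for footprints above the transcriptome. Median folds ranged from 10.9 to 17.4, 3.75 to 5.54 and 3.08 to 3.43. Reversed values, on the log2 scale, were the 5' UTRs of Ndufa12 (1.35) and Ndufc2 (3.05) with DMDA-PatA and of Uqcrc1 (0.75) with harringtonine under TMM over coding sequences, Ndufs6 with harringtonine under swapped scaling (-0.011), Ndufs3 with harringtonine without harringtonine library 2 (-0.79, and 1.01 without library 1), Cox6c with harringtonine without control library 1 (0.16) or harringtonine library 2 (0.22; -0.76 without library 1) and with puromycin without control library 1 (0.26; -0.38 without control 2), and Ndufa3 footprints per transcriptome read without footprint control 1 (-0.15) or transcriptome library 1 (-0.099; 0.25 without library 2). Beyond what each alternative changes by construction, the cause was not tested. Values of single members on the coding sequence were not refitted under TMM, as the relative scale gives them. Fits that leave out 1 library assume that the lone library of its group varies like the others. The limma fit and the 5' UTR shares without single genes were chosen after seeing the data. Depth limits low members: 1 read with DMDA-PatA is worth 0.631 or 0.812 normalised footprints.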
